A study of Gallus gallus with 8 samples.

Results

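The genes described here are LRRC17, GNB3, ASCL2, SPATA17, ABCA4, GHRH and GNAT2, 7 of the 13009 chicken genes named on the arrays, whose probe sets had the deepest falls when trigeminal ectoderm was cultured with FGF2. They were chosen from the FGF2 comparison itself, as genes whose deepest-falling probe set was more than 2-fold lower, passed an unadjusted p of 0.05 and had every treated array below every untreated one. Every FGF2 difference of these genes is therefore given as a description, without a test. All of their probe sets were then followed, 14 of the 38439 on the arrays, and no filter on low values was applied. The study asked which genes of the otic placode, the ectoderm that forms the inner ear, can be induced by FGF signaling alone. Otic ectoderm and lateral ectoderm were freshly dissected from chick embryos at stage 10 and were not cultured. Presumptive trigeminal ectoderm was taken at stage 8 and cultured for 18 h in collagen gels in DMEM/F12 with N2 supplements, either without FGF2 or with 50 ng/ml FGF2. Each of the 4 groups had 2 arrays, and each array received RNA pooled from many pieces of ectoderm. No source used here states whether the pools of a group came from separate cultures or dissections, so p-values measure only the spread between these pools, which may be technical. In such pools, fewer cells of a type and less RNA per cell cannot be told apart.

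In the retina, cone photoreceptors turn light into a nerve signal through transducin, a heterotrimeric G protein. GNAT2 encodes its alpha subunit in cones and GNB3 its beta subunit, and ABCA4 encodes a transporter that clears retinoid lipids from the photoreceptor outer segment. The other genes belong to different systems. GHRH encodes the hypothalamic peptide that releases growth hormone, and LRRC17 encodes a secreted leucine-rich repeat protein that restrains osteoclast formation in mice. ASCL2 encodes a basic helix-loop-helix factor of the achaete-scute family, known in mice as a Wnt target in intestinal stem cells and as a factor of the placenta. SPATA17 encodes a calmodulin-binding protein of the testis. None of them is a classical marker of trigeminal or otic ectoderm.

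Intensities are linear array values in arbitrary units, with array medians between 25.6 and 31.7. Values under 1, which were 2.30% to 2.90% of an array, were set to 1 before the log2 was taken, and the intensities themselves are given here as deposited. Probes bind with different strength, so intensities of different probe sets cannot be compared as levels. All probe sets together had a median log2 difference of 0.097 for FGF2-treated minus untreated and 0.19 for otic minus lateral ectoderm, which became −0.00041 and 0.012 after quantile normalization. The surface ectoderm marker CDH1 was between 1119.0 and 2494.6 on the 8 arrays and EPCAM between 8325.6 and 11290.3, whereas the ectodermal factor DLX3 was between 2.3 and 7.6. The trigeminal marker PAX3 was low in the cultures labelled trigeminal, at 13.7 and 34.0 without FGF2 and 34.4 and 18.6 with it. Summed over 7 trigeminal and epibranchial placode markers, intensities were 562.2 to 661.2 in untreated and 1826.3 to 3314.6 in FGF2-treated cultures, and 4 of the 7 passed as higher. On brightest probe sets, 0 genes of 8 such marker lists passed as lower with FGF2, against 1.51% of all genes. This does not mean that no marker was lower. The neural tube and retina marker PAX6 went from 3587.7 and 4168.9 to 1671.9 and 1838.5. The neural crest marker SOX10 went from 1909.6 and 3131.4 to 1395.1 and 1228.4, and neither passed. Passing as higher, against 2.16%, were also 3 of 15 mesoderm, 2 of 8 neural tube and retina, 1 of 6 otic placode, 1 of 9 neural crest and 1 of 15 endothelial and blood markers, and 0 surface ectoderm or endoderm markers. Their part in the falls described here was not tested. The log2 ratio of 3′ to 5′ control probe sets of GAPDH, a sign of transcript length after amplification, stood at 1.60 and 1.06 in untreated and at 1.39 and 1.72 in treated cultures, and that of actin at 1.42 and 1.20 and at 1.35 and 1.24.

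GNB3 was above the array medians in untreated culture and under them on all 6 other arrays, on both of its probe sets. Its brighter probe set was at 140.5 and 270.3 without FGF2 and at 6.0 and 5.2 with FGF2. In fresh tissue it was at 3.2 and 2.8 in otic and at 2.4 and 13.9 in lateral ectoderm. The untreated cultures thus stood apart from all 6 other arrays, and the log2 difference with FGF2 was −5.12. A second, dimmer GNB3 probe set was at 37.2 and 56.1 without FGF2 and at 17.5 and 9.9 with it, a log2 difference of −1.80. It was at 9.2 and 17.0 in otic and 0.7 and 2.9 in lateral ectoderm, so that both GNB3 probe sets were highest in untreated culture.

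GNAT2, the alpha subunit that pairs with GNB3 in cones, had 1 probe set and dimmer signals. Its intensities were 24.4 and 21.8 without FGF2, just under the array medians of 27.6 and 29.0, and 2.2 and 1.1 with FGF2. The log2 difference was −3.89. In fresh tissue it was at 15.1 and 11.0 in lateral and at 2.0 and 2.4 in otic ectoderm. The otic arrays thus overlapped the FGF2-treated cultures, and the lateral arrays lay between these and the untreated cultures.

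ABCA4, the retinoid lipid transporter, was at 57.0 and 32 without FGF2 and at 1.8 and 2.2 with FGF2 on its deepest-falling probe set. The log2 difference was −4.42. Lateral ectoderm was at 27.9 and 61.1, overlapping the untreated cultures, and otic ectoderm was at 4.1 and 15.7. Both treated arrays were below all 6 others. The remaining ABCA4 probe sets did not show this pattern. One was at 11.5 and 5.1 without and 5.5 and 16.1 with FGF2, and the other was at 2.0 or less on every array.

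GHRH, the growth hormone-releasing peptide, was brighter in fresh otic ectoderm than in any culture. Its single probe set was at 117.8 and 49.6 in otic ectoderm, at 12.2 and 42.9 in lateral ectoderm and at 42.8 and 46.0 in untreated culture. With FGF2 it was at 4.6 and 1.1, below all 6 other arrays, and the log2 difference was −4.30. For GHRH the treated cultures, not the untreated ones, were thus the group that stood apart.

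LRRC17, the secreted leucine-rich repeat protein, had the largest difference and the least even replicates. It was at 27.4 and 188.9 without FGF2, a ratio of 6.89 between the untreated pools, and at 2.3 and 0.7 with FGF2. The log2 difference was −5.57, and it was −6.96 without untreated replicate 1 and −4.18 without untreated replicate 2. Fresh ectoderm was at 1.9 and 0.9 in the otic and 0.8 and 4.3 in the lateral group. Untreated culture was thus the only group in which LRRC17 rose above 4.3.

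ASCL2, the achaete-scute family factor, was at 45.5 and 31.7 without FGF2 and at 1.4 and 2.7 with FGF2, a log2 difference of −4.29. It was at 7.6 and 9.2 in lateral and at 4.0 and 1.5 in otic ectoderm, so that untreated culture was again above all 6 other arrays.

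SPATA17, the testis protein, had 5 probe sets, and they did not act together. The deepest-falling one was at 24.0 and 19.9 without FGF2 and at 0.8 and 1.0 with it, a log2 difference of −4.45, and was between 0.8 and 2.6 in fresh ectoderm. The 2 brighter probe sets showed no such fall. The brightest was at 61.3 and 79.4 without and 63.2 and 47.2 with FGF2, and the next brightest at 31.5 and 37.5 without and 41.9 and 55.5 with FGF2. The remaining SPATA17 probe sets, which went from 7.2 and 3.5 to 1.7 and 1.4 and from 5.2 and 1.8 to 0.7 and 1.5, were dim on all 4 culture arrays. Both treated arrays were thus below both untreated ones in the 3 dimmer SPATA17 probe sets and not in the 2 brighter ones.

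**Figure D1:**
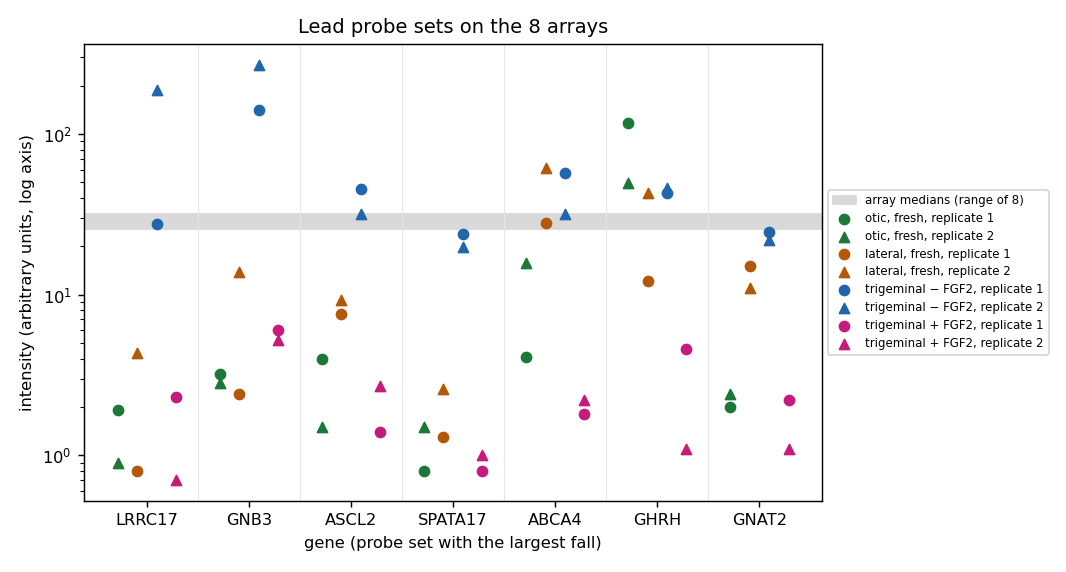
Intensity (arbitrary units, log axis) of the deepest-falling probe set of each gene on the 8 arrays, by group (colour) and replicate (shape), with the range of the array medians in grey. LRRC17, GNB3, ASCL2, SPATA17 and GNAT2 have both untreated cultures (blue) above all other arrays, while ABCA4 and GHRH overlap fresh tissue and have the FGF2-treated cultures (pink) lowest.

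Across the 4 groups, the 7 genes fell into these patterns. Both untreated arrays were above the 6 others in 5 of the 7 deepest-falling probe sets, those of LRRC17, GNB3, ASCL2, SPATA17 and GNAT2, against 3% of all probe sets. Both treated arrays were below the 6 others in 2 of the 7, those of ABCA4 and GHRH, against 2.88% of all probe sets. The choice of the genes used these cultures, so nothing is read from either count. Relative to lateral ectoderm, untreated culture was higher by a log2 difference of 5.12 for LRRC17, 5.08 for GNB3, 3.57 for SPATA17 and 2.18 for ASCL2. It was higher by 0.96 for GHRH, 0.84 for GNAT2 and 0.05 for ABCA4. Treated culture differed from otic ectoderm by −5.09 for GHRH and −2.01 for ABCA4 and by between −0.49 and 0.90 for the other 5. The choice favoured high untreated and low treated values, so these differences from fresh ectoderm are also given only as a description. Stage, origin and culture differ between fresh and cultured ectoderm and cannot be told apart in these values.

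In order of fall among probe sets with 1 gene symbol that met the limits of the choice, LRRC17 was first, followed by GNB3, SPATA17, ABCA4 and GHRH, and GNAT2, in place 8, was the last inside. PDCD1, an inhibitory receptor of immune cells, had a difference of −4.30 that lay between those of GHRH and ASCL2 but is not among the 7. It went from 32.7 and 24.7 to 1.1 and 1.9. Next below GNAT2 were TROJANZ (−3.69) and the keratin gene KRT80 (−3.55), which went from 22.2 and 11.8 to 0.8 and 1.9. The values inside and outside the choice thus run into each other. At a fold above 2 and an unadjusted p under 0.05, 2.26% of all probe sets were lower with FGF2 and 2.74% were higher. These shares do not ask that treated and untreated arrays lie apart. In limma 0 of 38439 passed an adjusted p under 0.05, against 2020 at an unadjusted p under 0.05.

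The treated values of all 7 genes lay far under the array medians, at percentiles 1.5 to 20.7 of their arrays, so that the sizes and ranks of the falls are uncertain. The untreated values of the same probe sets lay at percentiles 40.7 to 81.3, and 4 of the 7 had both untreated arrays at or above the array median. When 32 was added to every intensity before the log2, the falls ranged from −2.60 for GNB3 to −0.71 for SPATA17 and GNAT2, with −1.77 for LRRC17, −1.15 for ABCA4, −1.13 for GHRH and −1.05 for ASCL2. GNB3 and LRRC17 thus had the deepest falls on both scales. Only 3 of the 14 probe sets were among the brighter 60% of all by mean log2 intensity, and of these the GHRH probe set alone was a deepest-falling one. Of the 7 other probe sets, 3 had both treated arrays below both untreated arrays, against 13.2% of all probe sets. They belong to genes chosen by this difference on the same arrays, so nothing is read from this count. One letter in the name of the brighter GNB3 probe set differs from the rest (A1 in place of S1), and no source used here says what it means.

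**Figure D2:**
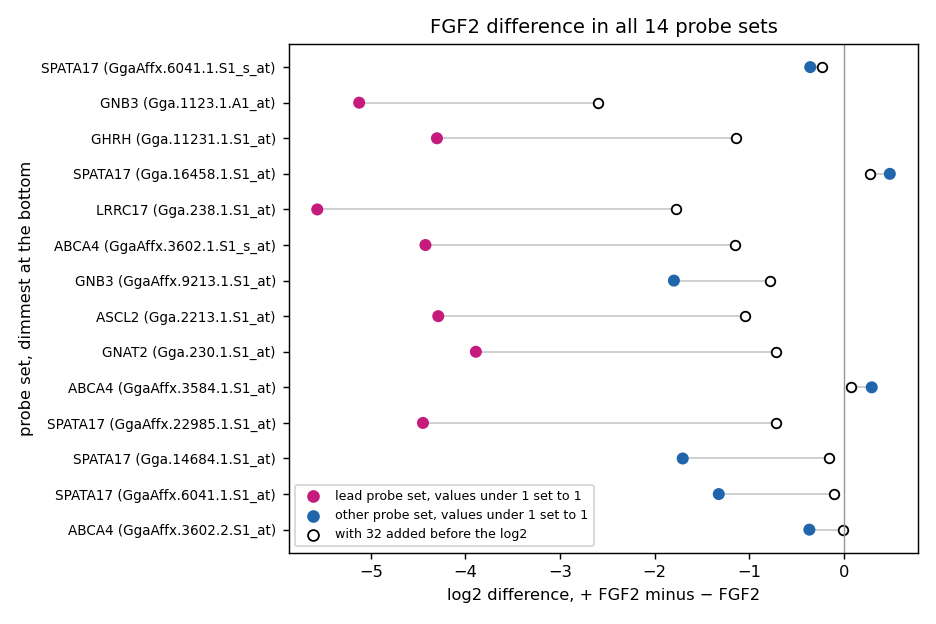
Log2 difference of FGF2-treated minus untreated cultures (x axis) for all 14 probe sets of the 7 genes, ordered by mean intensity with the dimmest at the bottom. Pink points are deepest-falling and blue points other probe sets, with values under 1 set to 1, and open circles show the same with 32 added, which moves the 7 deepest falls to between −2.60 and −0.71.

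The difference between otic and lateral ectoderm was not used to choose the genes. The spread between their arrays was, since the p of the choice came from the fit over all arrays. The comparison of the tissues asks whether genes low in FGF2-treated culture also differ between the otic placode and its neighbour. On their deepest-falling probe sets, GNAT2, ABCA4 and ASCL2 were lower in otic ectoderm, and none of the 7 such probe sets passed as higher. In limma the log2 difference of GNAT2 was −2.56 (standard error 0.45, adjusted p = 0.22), with n = 2 arrays in each tissue. That of ABCA4 was −2.36 (standard error 0.75, adjusted p = 0.48), and that of ASCL2 was −1.77 (standard error 0.59, adjusted p = 0.51). The otic arrays of all 3 genes lay below both lateral arrays. This held for 4 of the 14 probe sets, against 11.3% of all probe sets, and the opposite held for 4 of 14, against 24.7%. These 3 of 14 probe sets passed as lower at a fold above 2 and an unadjusted p under 0.05, against 2.73% of all probe sets, and 2 of 14 passed as higher, against 5.05%. The higher share among all probe sets depended on the scaling, since 1048 were lower and 1941 higher here, 1486 and 1415 with quantile normalized arrays, and 1489 and 1372 with median-centred ones. The probe sets of the 7 genes still counted as 3 lower and 2 higher under both scalings. The 3 lower ones were deepest-falling probe sets. For these the choice favoured a small standard error, which this comparison shares, so their share is not independent of the choice. In the fit of 4 arrays, here the otic and lateral ones alone, the counts were also 3 lower and 2 higher. The spread between these arrays had still entered the choice. No probe set of the 38439 passed an adjusted p under 0.05, against 3168 at an unadjusted p under 0.05.

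The probe sets that were higher in otic ectoderm belonged to GNB3 and SPATA17 and were not those with the deepest falls. The second GNB3 probe set was higher by 2.88 (standard error 0.65, adjusted p = 0.32), with lateral values of 0.7 and 2.9 that leave the size uncertain. The next-brightest SPATA17 probe set was at 57.1 and 49.2 in otic and 11.7 and 12.9 in lateral ectoderm, a log2 difference of 2.11 (standard error 0.35, adjusted p = 0.21). The brighter GNB3 probe set had −0.95 (standard error 0.83, adjusted p = 0.80), opposite in sign to the second one, and did not pass. GHRH had 1.74 (standard error 0.90, adjusted p = 0.69) and did not pass, although both otic arrays lay above both lateral ones. LRRC17 had −0.59 (standard error 1.11, adjusted p = 0.92), with intensities near 1 in both tissues. The ABCA4 probe sets other than the deepest-falling one had −1.17 (standard error 0.71, adjusted p = 0.73) and −0.13 (standard error 0.42, adjusted p = 0.96) and did not pass. Over the 14 probe sets the median was −0.59, beside 0.19 over all probe sets.

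These calls were of unequal strength. With 32 added before the log2, all 5 were lost, at −0.40 for GNAT2, −0.85 for ABCA4, −0.22 for ASCL2, 0.41 for GNB3 and 0.94 for SPATA17. Leaving out single arrays did not remove the calls of GNAT2, the next-brightest SPATA17 probe set or the second GNB3 probe set. ABCA4 lost its call without otic replicate 1 (−1.39) or lateral replicate 2 (−1.80). For ASCL2 the call was lost when otic replicate 2 (−1.06), or either lateral replicate (−1.91 without replicate 1 and −1.63 without replicate 2), was left out. GHRH passed as higher without lateral replicate 2 (2.65), and the brighter GNB3 probe set passed as lower without lateral replicate 1 (−2.22). Likewise a dim SPATA17 probe set passed as lower without lateral replicate 1 (−2.72), and the brightest SPATA17 probe set passed as higher without lateral replicate 2 (1.35). Lateral ectoderm also held more endothelial and blood markers, of which 5 of 15 were lower in otic ectoderm and 0 higher, against 2.65% and 4.94% of all genes. Their summed intensity was 2649.8 to 3414.4 in otic and 5376.9 to 7361.8 in lateral ectoderm, with the endothelial cadherin CDH5 at 142.9 and 606.6 against 1113.8 and 1273.4. The summed intensities of 15 mesoderm markers (2450.2 to 4909.4 in otic and 6787.8 to 8533.9 in lateral ectoderm) and of 9 endoderm markers (2345.5 to 5206.9 and 5447.2 to 9648.1) were also higher in lateral ectoderm on both arrays. A few bright genes weighed most in these sums, COL3A1 in the first and TTR and APOA1 in the second. COL3A1 was at 131.6 and 691.6 in otic and 3056.2 and 4681.1 in lateral ectoderm. The median log2 difference was 0.33 for the mesoderm and −0.012 for the endoderm markers, beside 0.19 over all genes. Of the mesoderm markers 1 passed as lower and 1 as higher in otic ectoderm, and of the endoderm markers 0 and 1. The part of these markers in the differences of GNAT2, ABCA4 and ASCL2 was not tested. The log2 control ratios of 3′ to 5′ also differed, in opposite directions. That of GAPDH was 1.92 and 1.69 in otic and 2.27 and 2.18 in lateral ectoderm, and that of actin was 1.32 and 1.36 against 1.10 and 1.02. Their part was not tested either.

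**Figure D3:**
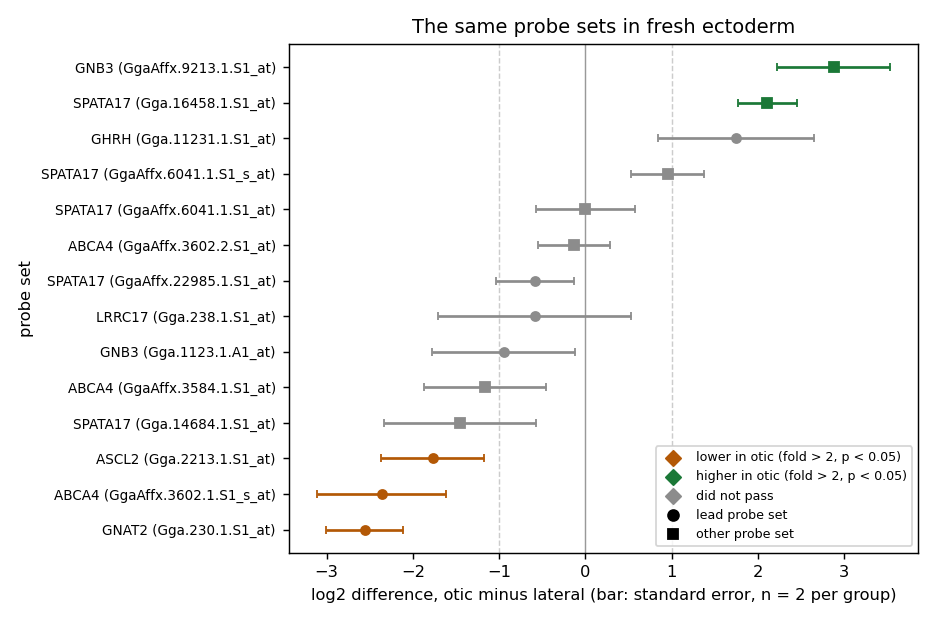
Log2 difference of otic minus lateral ectoderm with its standard error (n = 2 arrays per group) for the 14 probe sets, circles for deepest-falling and squares for other probe sets, dashed lines at 2-fold. The deepest-falling probe sets of GNAT2, ABCA4 and ASCL2 are lower in otic ectoderm, and probe sets of GNB3 and SPATA17 that are not the deepest-falling ones are higher.

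Genes that work with the 7 were compared in the same fit, with the 7 left out and the brightest probe set taken for each gene. The photoreceptor and phototransduction list had 44 measured genes, of which 2 were lower and 1 was higher with FGF2, with a median of −0.12 beside 0.12 over all 13009 genes. Over all genes, 1.51% were lower and 2.16% higher. When any probe set of a gene counted, 5 of the list were lower and 1 was higher. The shares over all genes are for brightest probe sets only, so these counts cannot be set against them. CNGB1, a channel subunit of rods, was at 16.3 and 30.3 without and 3.6 and 3.6 with FGF2, a log2 difference of −2.63 (standard error 0.88, adjusted p = 0.82). RDH5, a retinol dehydrogenase of the visual cycle, was at 146.9 and 182.3 without and 75.5 and 56.5 with FGF2 (−1.33, standard error 0.41, adjusted p = 0.74). The call of CNGB1 was lost without untreated replicate 2 or either treated array, and that of RDH5 without untreated replicate 2 (−1.17) or treated replicate 2 (−1.12).

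The close partners of cone transducin did not pass on their brightest probe sets. GNGT2, the cone gamma subunit, was at 34.3 and 37.0 without and 36.9 and 41.0 with FGF2. ARR3, the cone arrestin, was at 52.4 and 66.5 without and 73.5 and 53.8 with it. The cone phosphodiesterase subunit PDE6C was at 22.4 and 6.7 without and 13.5 and 5.2 with FGF2. The cone channel subunit CNGA3 was between 1.6 and 2.4 on all culture arrays. The red cone opsin OPN1LW had unlike treated replicates, at 63.2 and 2.8 against 43.5 and 58.8 without FGF2. RPE65, the visual cycle isomerase, had unlike untreated replicates, at 129.7 and 416.8 against 159.9 and 73.7 with FGF2. There these partners thus overlapped between treated and untreated cultures or lay close together. A dimmer GNGT2 probe set passed as lower, from 17.2 and 18.6 to 3.5 and 5.4 (−2.04, standard error 0.59, adjusted p = 0.68). It carries the same A1 in its name as the brighter GNB3 probe set. Dimmer probe sets of the arrestin gene SAG (16.8 and 18.7 to 4.5 and 1.4, −2.82, adjusted p = 0.67) and of OPN4-1 (−1.60, adjusted p = 0.71) passed as lower as well.

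With FGF2, 1.51% of all genes were lower and 2.16% higher, with a median of 0.12. Among 26 genes listed as heterotrimeric G protein subunits, without GNB3 and GNAT2, 0 were lower and 1 was higher, and the median was 0.28. The list also counts GNB1L, a gene only similar to a beta subunit, which did not pass. The higher one was GNAT3, the taste transducin alpha subunit and the photoreceptor list's own higher gene, at 4.2 and 0.7 without and 17.0 and 18.8 with FGF2 (3.12, standard error 0.91, adjusted p = 0.68). It lost its call without untreated replicate 2 (2.09). GNB1, the beta subunit of rod transducin, was at 2547.1 and 3180.9 without and 3880.5 and 4513.1 with FGF2, and did not pass. Of 19 eye transcription factors, 0 were lower and 2 were higher, NEUROD1 (3.35, standard error 0.93, adjusted p = 0.66) and NR2E3 (1.09, standard error 0.36, adjusted p = 0.80), which kept their calls in 7 and 4 of 8 fits with 1 array left out. PAX6, the master regulator of the eye and lens, was bright in culture, at 3587.7 and 4168.9 without and 1671.9 and 1838.5 with FGF2. Both treated arrays were thus below both untreated ones, but the difference of −1.14 (standard error 0.63) did not pass. In fresh ectoderm PAX6 was between 13.4 and 44.3. The spread between those dim fresh arrays enters this standard error, since all 8 arrays were fitted together. Of the 8 other ABCA transporters measured, 0 passed in either direction.

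The relatives of the other genes also mostly did not pass. Of all genes, 1.51% were lower and 2.16% higher with FGF2. In the list of secretin-family peptides and the growth hormone axis around GHRH, 2 of 25 were lower and 0 higher. POU1F1, the pituitary factor of growth hormone cells, was at 28.9 and 22.2 without and 6.3 and 3.1 with FGF2 (−2.52, standard error 0.77, adjusted p = 0.74). It lost its call without untreated replicate 1 (−2.33) or treated replicate 2 (−2.01), and another of its probe sets had a difference of 2.03. The somatostatin receptor gene SSTR5 (−1.98) lost its call in 6 of 8 fits with 1 array left out, and a dimmer SSTR5 probe set passed as higher, from 2.6 and 0.9 to 13.7 and 7.8 (2.68, standard error 0.59, adjusted p = 0.46). GHRHR, the receptor of GHRH, was at 16.4 and 12.6 without and 2.6 and 7.8 with FGF2 and did not pass, nor did growth hormone itself. Of 16 bHLH genes around ASCL2, NEUROD1 was higher and 0 were lower, and of 15 Wnt feedback targets 0 passed. The list around LRRC17 had 20 measured genes, mostly secreted or matrix leucine-rich repeat genes, with TNFSF11, TNFRSF11A and TNFRSF11B. Of these, CHADL was lower (−1.06) and ECM2 higher (2.42), with untreated ECM2 values of 4.4 and 2.0 that leave its size uncertain. CHADL kept its call in 3 of 8 fits with 1 array left out.

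In the axonemal list around SPATA17, 5 of 51 measured genes were higher and 1 was lower with FGF2, with a median of 0.28. The shares over all genes were 2.16% and 1.51%, with a median of 0.12. EFHC2, an axonemal protein, was at 1.5 and 2.9 without and 33.1 and 32.2 with FGF2 (3.97, standard error 0.48, adjusted p = 0.28). AK7, an adenylate kinase of cilia, rose by 3.09 (standard error 0.44, adjusted p = 0.28) and CCDC40, which builds the axoneme, by 2.74 (standard error 0.36, adjusted p = 0.28). All 3 kept their calls with any 1 array left out, although their untreated values of 1.3 to 6.2 leave the sizes uncertain. They lost them with 32 added before the log2, at 0.92 for EFHC2, 0.37 for AK7 and 0.88 for CCDC40. Another CCDC40 probe set went from 27.2 and 40.2 to 44.6 and 5.0 (−1.15). The dimmer EFHC2 probe sets had differences of −0.66 and 0.56. These other probe sets of CCDC40 and EFHC2 did not pass. RSPH14, a radial spoke gene, had a difference of −1.05 (standard error 0.35, adjusted p = 0.81) and lost its call in 3 of 8 fits with 1 array left out.

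Of 16 measured feedback genes of the FGF pathway, which FGF signaling is known to induce, 7 were higher and 0 lower with FGF2, against 2.16% and 1.51% of all genes, with a median of 1.10. The other 9 did not pass, among them SPRED1 (0.90) and EGR1 (0.17). DUSP6, a phosphatase that switches off MAP kinase, was at 51.8 and 76.8 without and 434.6 and 566.3 with FGF2. SPRY1 rose by 2.75 and SPRY2 by 2.70, both inhibitors of the pathway. In fresh tissue the same list had 9 of 16 higher in otic than in lateral ectoderm and 0 lower, against 4.94% and 2.65% of all genes.

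**Figure D4:**
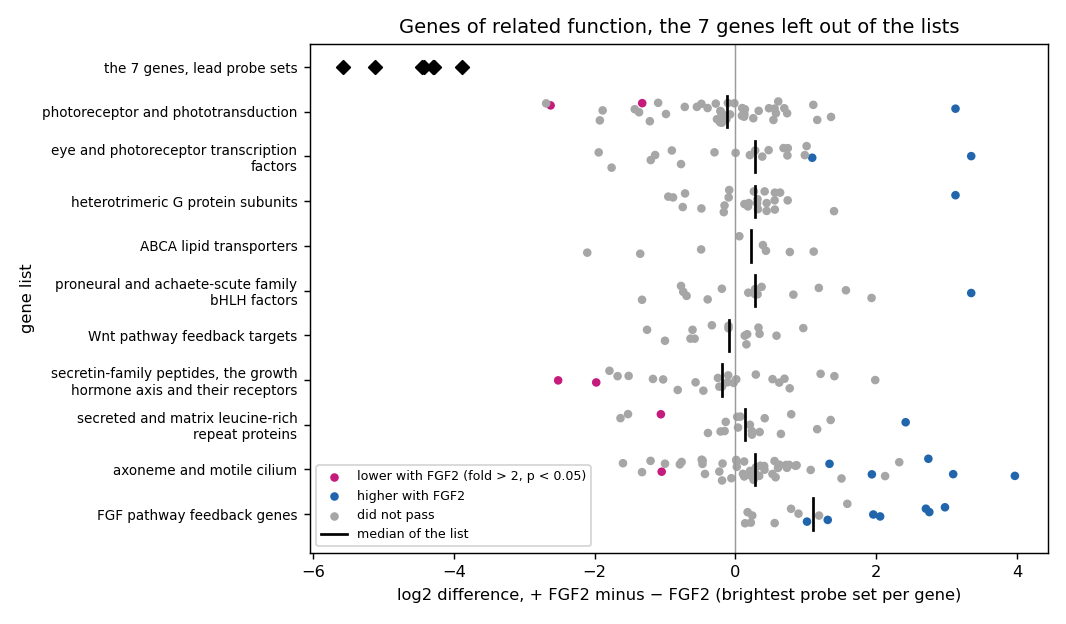
Log2 difference of FGF2-treated minus untreated cultures (x axis) for the 7 genes (black diamonds, deepest-falling probe sets) and for 10 lists of related genes (brightest probe set per gene), pink where lower and blue where higher at a fold above 2 and unadjusted p under 0.05, with list medians as black lines. The list medians lie between −0.19 and 0.28 except that of the FGF feedback genes at 1.10.

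In the otic and lateral comparison, 2.65% of all genes were lower and 4.94% higher in otic ectoderm. The photoreceptor list had 2 of 44 genes lower and 1 higher. The lower ones were OPN4 and OPN4-1, melanopsin genes, of which OPN4 was at 0.6 and 0.8 in otic and 2.9 and 15.7 in lateral ectoderm. The higher one was GUCA1A, an activator of photoreceptor guanylate cyclase, at 42.4 and 39.3 against 12 and 4.6 (2.46, adjusted p = 0.40). Of the 26 other genes of the G protein list and the 8 other ABCA transporters 0 passed on their brightest probe sets. With any probe set of a gene counted, 1 G protein gene was lower and 1 was higher. Of the members, GNAT2 was lower and ABCA4 was lower on its deepest-falling probe set only. GNB3 did not pass on its brighter probe set and was higher on its second. Of the eye transcription factors, OTX2 was higher in otic ectoderm (3.45, adjusted p = 0.31), PRDM1 was higher (3.16, adjusted p = 0.21) and SIX3 was lower (−1.36, adjusted p = 0.52). Around SPATA17, 6 of 51 axonemal genes were higher in otic ectoderm and 1 was lower. RFX3, a ciliary transcription factor, had the largest difference (2.88, adjusted p = 0.56) but kept its call in 1 of 8 fits with 1 array left out. MNS1 (1.58, adjusted p = 0.37), a protein of the sperm axoneme, kept it in all 8. Around LRRC17, the matrix genes ECM2 (2.71, adjusted p = 0.42) and EPYC (2.68, adjusted p = 0.53) were higher. The osteoclast factor TNFSF11 was also higher (2.02, adjusted p = 0.56), and its receptor TNFRSF11A was lower (−1.35, adjusted p = 0.55). Lateral values of 6.0 and 1.3 for ECM2, 1.0 and 0.4 for EPYC and 1.7 and 8.1 for TNFSF11 leave these sizes uncertain. TNFSF11 kept its call in 1 of 8 such fits and EPYC in 4 of 8. Of the lists around ASCL2, NEUROD6 (1.82, adjusted p = 0.47) and the Wnt target CCND1 (2.16, adjusted p = 0.24) were higher.

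Genes with patterns like those of the 7 were sought over the 8 arrays, among genes that reached an intensity of 100, by the Pearson correlation r of log2 values with 32 added. The arrays share groups, so r mostly reflects differences between groups, and it is given as a description. GNB3 was most like ADCY8, an adenylyl cyclase (r = 0.979), the neuronal membrane glycoprotein gene GPM6A (0.971) and MGARP, a mitochondrial protein (0.965). ADCY8 was at 140.0 and 274.8 in untreated culture and between 27.9 and 51.7 on the other 6 arrays. GPM6A was at 113.5 and 170.7 in untreated culture, 14.1 and 14.4 with FGF2 and 10.9 or less in fresh ectoderm. ADCY8 and GPM6A reached an intensity of 100 only in untreated culture. The search itself asked for that intensity and for a pattern like that of GNB3, so nothing is read from either.

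MGARP was also among the 3 most alike of ASCL2 (0.940) and SPATA17 (0.959), with 146.9 and 149.6 in untreated culture and 31.3 to 56.1 elsewhere. CLSTN1, a calsyntenin of nerve cells, was among those of the same pair of genes. LRRC17 was most like OXTR (0.961), an oxytocin-family receptor gene, at 26.7 and 118.7 in untreated culture and 14.5 to 25.7 elsewhere. OXTR reached the intensity that the search asked for only on the brighter untreated array. MGARP and CLSTN1 reached it only in untreated culture. The search also asked for a pattern like that of the member, so nothing is read from the likeness of OXTR, MGARP or CLSTN1. GNAT2 was most like KCNMA1, a potassium channel gene (0.933), which was at 308.6 and 271.4 in untreated culture, 153.2 and 242.8 in lateral ectoderm, 58.3 and 58.6 in otic ectoderm and 78.7 and 81.3 with FGF2. SLC12A2, an ion cotransporter (0.933), and NID1, a basement membrane protein (0.919), followed. As for GNAT2 itself, their untreated and lateral arrays were above all otic and treated arrays, and otic and treated arrays overlapped. Untreated and lateral arrays also overlapped for NID1. ABCA4 was most like PLA2G15, a lysosomal phospholipase (0.972), at 173.7 and 326.3 in lateral ectoderm, 244.3 and 213.7 in untreated culture, 65.4 and 81.3 in otic ectoderm and 31.2 and 46.4 with FGF2. WNT3A, a Wnt ligand (0.951), and PTER (0.948) followed. GHRH was most like RDH10, an enzyme of retinoic acid synthesis (0.939), which was highest in otic ectoderm at 143.7 and 97.5 and lowest with FGF2 at 21.1 and 21.8. With values under 1 set to 1 in place of the 32 added, 12 of the 21 pairs of a member and an alike gene stayed among the 3 most alike. The most alike genes of GNB3, SPATA17 and ABCA4 stayed. Those of LRRC17, ASCL2, GHRH and GNAT2 did not, and for ASCL2 all 3 were lost.

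Among the 7 genes themselves, ASCL2 and SPATA17 were the most alike (r = 0.979 over 8 arrays), followed by GNB3 and SPATA17 (0.962). GHRH had the least in common with the others, at 0.129 to 0.242. ABCA4 was nearest to GNAT2 (0.825). All 7 were chosen with every treated array below every untreated one, which in part sets these correlations. They are given as a description.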

How the data were processed

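RNA of 4 groups of chick ectoderm, amplified and labelled with biotin, was hybridised to 8 Affymetrix Chicken Genome GeneChips. The authors deposited 1 linear intensity per probe set and array. No source used here gives the summary method, background correction or scaling, and detection calls were not used here. The submitters' processing notes name limma, without a version.

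Of 38535 probe sets, 96 controls were left out. Of the other 38439, 27168 name 1 gene symbol, 177 several and 11094 none. The log2 was taken without scaling, after raising values under 1 to 1. One mean per group was fitted over all 8 arrays (4 residual degrees of freedom) in limma 3.58.1 (R 4.3.3) by lmFit and eBayes. Tests were two-sided and adjusted by Benjamini and Hochberg over all probe sets. A probe set was counted as lower or higher at a fold above 2 and an unadjusted p under 0.05, the limits behind "passed" in the text. The number of arrays limits the precision.

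The members, lists and rules were chosen with earlier results of these data known, the lists from general knowledge around the members' roles. The rules picked all probe sets of the 7 genes, up to 3 called genes of largest change per list and direction, the 3 next genes in order of fall, and for each member the 3 most alike genes. Not every list gene or alike gene so picked is named in the text. Partners of cone transducin, GHRHR, GNB1, PAX6, SOX10 and RPE65, and the other probe sets of list genes, were named after their values were seen. They were named by role, by their calls or by their values. Lists were described by counts and medians. Alternatives were quantile normalization, median centring, a fit of 4 arrays, leaving out the dimmest 40%, the replicate number as a block, eBayes trend, an offset of 32, each array left out, a fold of 1.5, any probe set of a gene and another scale of likeness. The fit was tested on simulated data. A search of promoters for motifs was not done here. Plots used matplotlib 3.10.9 and Python 3.11.15.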

Additional observations from a re-analysis of the deposited data

How the results depend on the processing

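With 2 arrays per group and no adjusted p under 0.05, the calls rest on unadjusted limits, and most of the 14 probe sets are too dim to carry a firm size. In otic minus lateral ectoderm, 3 probe sets of the 7 genes passed as lower and 2 as higher. These counts were 0 and 1 with the dimmest 40% of probe sets left out, 0 and 0 with the offset of 32, and 1 to 4 lower and 2 to 4 higher with 1 array left out (1 and 4 without lateral replicate 2). Fewer of the 14 were tested in the first of these, and the cause was not tested in the others. Over all probe sets, 868 lower and 1054 higher with FGF2 became 65 and 184 with the offset and 254 and 522 with the dimmest left out. The otic counts, 1048 lower and 1941 higher, became 322 and 516, and 540 and 1276. After quantile normalization they were 1486 and 1415, and after median centring 1489 and 1372. They included 1915 lower without otic replicate 2. In the lists other than FGF feedback, 6 genes were lower and 9 higher with FGF2, and 5 lower and 14 higher in otic ectoderm. The genes lower with FGF2 were 10 after quantile normalization, 10 with the fit of 4 arrays, 3 with the offset and 10 with any probe set of a gene. Those higher were 15 with the fit of 4 arrays, 4 with the dimmest left out, 2 with the offset and 16 with any probe set. Genes lower in otic ectoderm were 1 with the fit of 4 arrays, 3 with the offset and 10 with any probe set, and those higher were 5 with the offset. With 1 array left out the ranges were 4 to 9, 7 to 14, 4 to 9 and 11 to 21, and the lone array of a group was assumed to vary like the other groups. No value of the 7 genes that had passed reversed its sign.

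Replicate differences of the groups correlated between −0.056 and 0.056, so no shared effect of the replicate number was seen. This cannot show whether samples of the same number were prepared together. With the replicate block, the probe sets of the 7 genes counted as 3 lower and 2 higher in otic ectoderm, and the list genes as 9 lower and 8 higher with FGF2 and 6 lower and 15 higher in otic ectoderm. ASCL2 also lost its call with the eBayes trend (−1.77). The FGF2 differences without single treated arrays were −5.33 and −3.27 for GHRH and −4.39 and −3.39 for GNAT2.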
